A study of Xenopus laevis with 13 samples.

Results

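Stages 30 and 35 of Xenopus laevis development, when the tail lengthens, were compared with stages 20 and 25, which run from the closing of the neural tube into the outgrowth of the tail bud. The 4 samples were taken by their titles out of 13 in the series, which also holds the unfertilized egg, the 2-cell stage, the 16-cell stage and stages 8, 9, 10.5, 12, 15 and 40. Each sample was total RNA of whole embryos obtained by in vitro fertilization, with no treatment or mutation named in the labels, labelled with a single dye and hybridised to 1 Agilent frog array, so each side holds 2 arrays of different stages and no stage has a replicate array. The stages stood in for replicates, and every spread given within a side therefore includes change between its stages. The study's own text counts stage 20 with the neurula and stages 25, 30 and 35 with the tailbud, and the sides are named here by their stage numbers. In the labels of 8 of the 13 samples, all 4 compared ones among them, the description disagrees with the title about the stage. The title was followed throughout.

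In the frog, the period covered by these stages is one of organ building. After the neural plate has rolled up, the somites divide into blocks of muscle, the heart tube forms and begins to beat, the pronephros starts to filter, the eye and ear vesicles differentiate, and the larva hatches as its gut and blood vessels take shape. Transcription factors and signals that laid out the germ layers and the neural plate are typically transient, while structural genes of muscle, blood, lens, gland and skin are typically switched on late and stay on in the tadpole. In RNA of whole embryos, fewer cells of a type and less RNA per cell cannot be told apart.

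The files pair each probe with a GenBank accession and with no gene name, and 0 of the 28256 accessions matched the reference gene table used here. Tissue and stage markers could therefore not be read, the 27 gene lists chosen for muscle, heart, neural, blood and other tissues were not counted, and single probes are given by probe ID and accession. The exception was the study's glycogene table, which lists accessions. Of its 43 accessions, those of 2 glycogenes, gcnt2 and mgat5b, matched accessions of the array, with 4 probes. The study reports array values for other glycogenes, among them fut1, abo and mgat1, which were not matched this way and are not covered here.

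All 4 arrays lay on 1 slide, and stage 40 lay on another. Stages 20, 25, 30 and 35 took positions 1, 2, 3 and 4 of their slide. Position on the slide and stage therefore cannot be told apart. The 75th percentile of the processed signal was 1542 and 1504 intensity units at stages 30 and 35, against 1122 and 1405 at stages 20 and 25. The scanner software called 76.4% and 73.9% of 43803 probes well above background at stages 30 and 35, against 72.3% and 74.0% at stages 20 and 25. The stage 20 array was thus the dimmest of the 4 and had the smallest share of detected probes. No probe was saturated. Levels below are log2 of the processed signal minus the array's 75th percentile, and they order arrays for 1 probe but not different probes. Under this scaling the median probe differed by -0.07 (log2) between the sides.

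A probe was counted as apart when both values of one side lay at least 2-fold above both values of the other, with the higher side well above background on both arrays. Of 32838 probes that were well above background on both arrays of at least 1 side, 1962 (5.97%) were higher at stages 30 and 35 and 997 (3.04%) were lower there. They represented 1385 and 719 of 22023 accessions. At a 4-fold distance, 584 probes (1.78%) were higher and 158 (0.481%) were lower at the later stages. Of the higher probes, 1378 (70.2%) lay 2-fold to 4-fold apart, 376 lay 4-fold to 8-fold apart, 139 lay 8-fold to 16-fold apart and 69 lay 16-fold or more apart. Of the lower probes, 839 (84.2%) lay in the 2-fold to 4-fold class, followed by 125, 24 and 9 in the wider classes. The median distance between the sides was 1.53 (log2) for the higher and 1.36 for the lower probes, and the largest distances were 8.33 and 5.04. Both of the largest were against sides not well above background, where a distance depends on the background signal. Among the 1090 higher and 778 lower probes that were well above background on all 4 arrays, the median distance was 1.35 and 1.31, the largest 6.27 and 4.76, and 181 (16.6%) and 89 (11.4%) lay at least 4-fold apart.

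**Figure D1:**
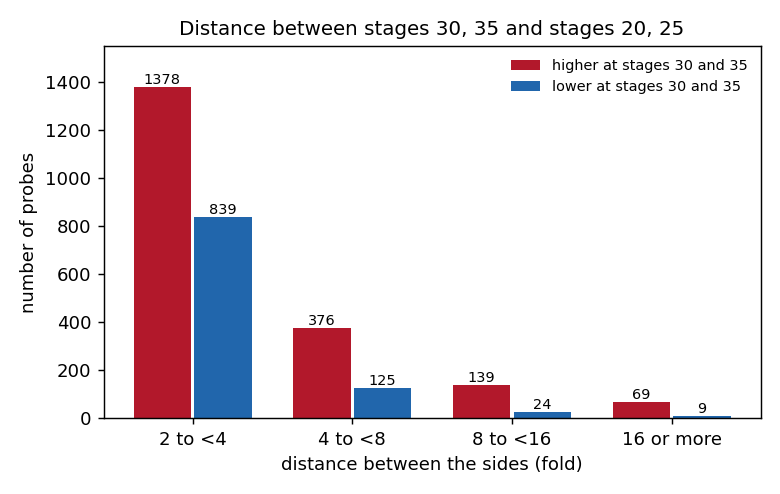
Number of probes (vertical axis) by the distance between the nearest values of stages 30 and 35 and of stages 20 and 25 (horizontal axis, in fold), for probes higher at stages 30 and 35 (red) and lower there (blue), including those with an undetected side. Most probes fall in the 2-fold to 4-fold class, with 1378 higher and 839 lower, and the widest class holds 69 higher and 9 lower probes.

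The difference of the side means had a median of 2.65 (log2; median SE 0.57) among the higher probes and of -2.26 (median SE 0.49) among the lower probes. For 1167 of the higher probes (59.5%) and 712 of the lower (71.4%), the distance between the sides was larger than the difference between the 2 arrays within either side. The rule chose these probes for that distance on the same arrays, so the differences and these shares are a description and no support. The share over all tested probes was not counted. Where the limit falls is arbitrary at the scale of single probes. The higher probe just inside it had -3.33 and -3.12 at stages 30 and 35, against -5.35 and -4.33 at stages 20 and 25, and the one just outside had -3.90 and -2.41, against -5.81 and -4.90. For the lower probes, the one just inside had -0.12 and 0.15 at stages 30 and 35, against 1.94 and 1.15 at stages 20 and 25, and the one just outside had -1.14 and -2.01, against -0.09 and -0.14. Within 0.1 (log2) of the limit, 262 higher probes lay inside and 371 outside, and 158 lower probes lay inside and 254 outside.

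Tested across all 43803 probes with limma (lmFit and eBayes, Benjamini-Hochberg adjustment), the side difference passed an adjusted p of 0.05 for 0 probes in either direction, and the smallest adjusted p was 0.118. At an unadjusted p under 0.05, 5653 probes (12.9%) were higher and 4572 (10.4%) were lower at stages 30 and 35. The 2-fold rule used the same 4 arrays, so p-values from them are no independent support for the probes it chose. Values within a side differ by stage, which this model counts as error. With the stage number as a linear trend over the same 4 arrays, 4560 probes (10.4%) rose with stage and 3734 (8.52%) fell at an adjusted p under 0.05. With all 13 arrays sharing one estimate of the spread, 1897 probes (4.33%) were higher and 721 (1.65%) lower at stages 30 and 35. That fit had 6 residual degrees of freedom, and besides the compared sides it pooled the 2-cell stage to stage 9 as one group and stages 10.5 and 12 as another, with the egg, stage 15 and stage 40 alone, so its spread includes change within those groups. Leaving out the stage 25 array from the 4-array fit gave 3933 higher and 2349 lower calls, leaving out stage 30 gave 300 and 44, and leaving out stage 20 or stage 35 gave 0. An exact permutation test of 2 arrays against 2 cannot go below a two-sided p of 0.333.

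Leaving out an array can only raise these counts, since fewer values then have to lie apart. The counts rose most without the arrays nearest to the boundary. Without stage 25, 5238 probes were higher and 3729 lower at stages 30 and 35, and without stage 30 the counts were 3948 and 2603. Without stage 20 or stage 35 they were 2137 and 2252 higher, and 1200 and 1085 lower. When the arrays were scaled to the added spike-in RNA instead, the median probe differed by 0.59 (log2) between the sides, and 3689 probes were higher and 447 lower at stages 30 and 35. The spike-in signal ran against the embryo signal: its mean was 11.67 and 11.73 (log2) at stages 30 and 35, against 12.29 and 11.89 at stages 20 and 25. Spike-in scaling shifts every value of an array by the same amount, and this raised both later arrays against both earlier ones. All 1962 higher probes thus had to stay apart, while 447 (44.8%) of the lower probes were still apart. The median of each array as the scale kept 1726 (88.0%) of the higher and all 997 of the lower probes. It shifted both later arrays down against both earlier ones, so that no lower probe could be lost. Quantile normalization kept 1812 (92.4%) of the higher and 983 (98.6%) of the lower probes. With a normexp background correction 941 (48.0%) of the higher and 596 (59.8%) of the lower probes were still apart.

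**Figure D2:**
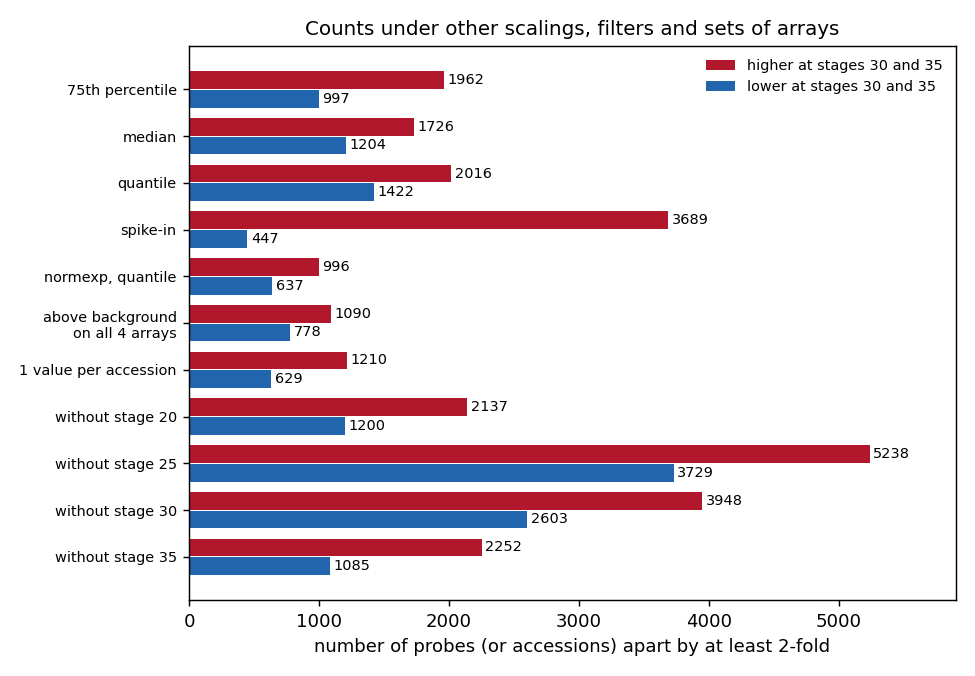
Number of probes (horizontal axis; accessions for the setting with 1 value per accession) apart by at least 2-fold, higher (red) and lower (blue) at stages 30 and 35, for each scaling, filter or left-out array (vertical axis, with the 75th percentile scaling at the top). An array left out can only raise the counts. Leaving out stage 25 gives the largest counts of these settings, 5238 and 3729, and the spike-in scaling gives the smallest lower count, 447.

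Dim probes took a large part in the higher set. By mean signal over the 4 arrays, the lowest quartile of the tested probes held 942 of the higher probes (11.5% of that quartile), against 570 (6.94%), 297 (3.62%) and 153 (1.86%) in the quartiles above it. The lower probes were spread more evenly, with 305 (3.71%), 301 (3.67%), 213 (2.59%) and 178 (2.17%). The 2 arrays within a side also differed more where the signal was low: the median absolute difference in the lowest quartile was 0.34 (log2) between stages 30 and 35 and 0.41 between stages 20 and 25, and in the highest quartile it was 0.19 and 0.31. The mean signal includes the 2 arrays on which a called probe had to be low, so the rule bears on these shares. Whether the signal level had a part in these counts was not tested.

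Of the higher probes, 1090 (55.6%) were well above background on both arrays of stages 20 and 25, 445 on 1 of them, and 427 (21.8%) on neither. For these 427 probes the level at stages 20 and 25 has only an upper bound, and the fold is a lower bound, set as the mean at stages 30 and 35 over the lowest signal that was well above background on each of the other arrays, or over the probe's own signal where that was higher. The bound had a median of at least 3.11-fold, reached at least 229-fold, and was at least 8-fold for 67 probes (15.7%) and at least 16-fold for 38. Of the lower probes, 778 (78.0%) were detected on both arrays of stages 30 and 35, 110 on 1 and 109 (10.9%) on neither. Their bound had a median of at least 3.29-fold lower and reached 63.4-fold, with 13 probes (11.9%) at 8-fold or more and 2 at 16-fold or more. A smaller share of the lower probes than of the higher probes was thus undetected on its low side.

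For 10555 accessions exactly 2 probes passed the filter, which allows a comparison of both. The 2 probes were read on the same arrays from the same RNA, so their agreement is a description and no replication of the stages. The median absolute gap between the side differences of both probes was 0.10 (log2). At least 1 probe was in the higher set for 792 accessions, and both were for 543 (68.6%); of the other 249, the second probe differed in the same direction for 241. At least 1 probe was in the lower set for 358 accessions, and both were for 235 (65.6%). For 120 of the other 123 the second probe differed in the same direction. No accession had 1 probe in each set. Accessions beginning with BC, the prefix of clones from full-length cDNA collections, made up 967 (49.3%) of the higher probes and 261 (26.2%) of the lower, against 37.8% of all tested probes. Those beginning with BJ, which are sequence tags, made up 4.08% and 18.6%, against 11.5%.

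The trend over the 4 arrays ran one way for most of these probes. In the higher set 1534 probes (78.2%) gained signal at every step, and in the lower set 844 (84.7%) lost signal at every step, against 20.9% and 24.1% of all tested probes. The rule fixes the direction of the middle step. It leaves the direction of the outer steps open but limits a turn there, since the sides must stay 2-fold apart. These shares come from the arrays that chose the probes and are a description. The order was turned between stage 20 and stage 25 alone for 246 higher and 45 lower probes, between stage 30 and stage 35 alone for 165 and 99, and at both for 17 and 9.

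The median step of the higher probes was 1.15 (log2) between stages 20 and 25, 1.60 between stages 25 and 30 and 0.65 between stages 30 and 35. That of the lower probes was -0.95, -1.39 and -0.71. Over all tested probes the median size of a step was 0.36, 0.31 and 0.24. The fixed middle step was the largest of the 3 for 1194 higher (60.9%) and 727 lower probes (72.9%). The first step was the largest for 673 higher (34.3%) and 168 lower probes (16.9%), and the last step for 95 and 102. Higher probes therefore more often had their largest step between stages 20 and 25 than lower probes did, as a description of these sets. Only 1094 higher probes (55.8%) were well above background at stage 20 and 1531 (78.0%) at stage 25, against all 997 lower probes on both arrays. Where a value lay below background, the size of the step was not measured.

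Change by at least 2-fold within a side was common. Between stages 20 and 25, 1091 of the higher probes (55.6%) gained at least 2-fold, against 9.23% of all tested probes, and 473 of the lower probes (47.4%) lost at least 2-fold, against 4.30%. Between stages 30 and 35 the shares were 587 (29.9%) against 3.11%, and 347 (34.8%) against 2.71%. Steps of at least 2-fold in the opposite direction were few, with 18 higher and 2 lower probes at the first step and 3 and 4 at the last. Many higher probes were below background at stage 20, and some lower probes at stage 35. The size of those steps was not measured. All the steps lie on the arrays that the rule used. The rule limits a turn within a side and not a step along the trend, so it bears on these shares.

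Stage 40, the tadpole, played no part in choosing the probes, and the question was whether it carried each trend on. Of the higher probes, 1610 (82.1%) had more signal at stage 40 than at stage 35, against 45.7% of all tested probes. Of the lower probes, 697 (69.9%) had less signal, against 54.3%. Only 779 lower probes (78.1%) were well above background at stage 35 and 802 (80.4%) at stage 40. Where a value lay below background, the size of the step was not measured. Stage 40 went at least 2-fold further for 643 higher (32.8%) and 253 lower probes (25.4%), against 5.01% and 3.36% of all tested probes, and at least 4-fold further for 153 (7.80%) and 100 (10.0%), against 1.09% and 0.676%. It came back by at least 2-fold for 54 (2.75%) and 67 (6.72%), near the 3.36% and 5.01% of all tested probes. The median step between stages 35 and 40 was 0.63 (log2) for the higher and -0.40 for the lower probes, and the median size over all tested probes was 0.27. With 1 array at stage 40 these shares carry no test, and since stage 40 lay on another slide, slide and stage cannot be told apart.

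**Figure D3:**
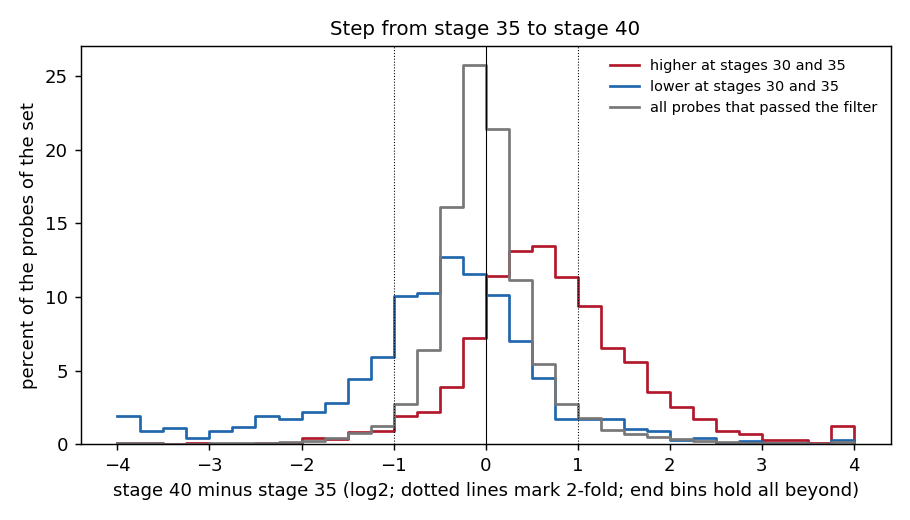
Distribution of the step between stage 35 and stage 40 (horizontal axis, log2; positive values are higher at stage 40) as a percentage of each set (vertical axis), for probes higher at stages 30 and 35 (red), probes lower there (blue) and all tested probes (grey). The red curve is shifted to the right of 0 with a median of 0.63, and the blue curve leans to the left with a median of -0.40 and a longer left tail.

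Return to the earlier level was rare. At stage 40 the signal was back in the range of stages 20 and 25, or past it, for 6 higher and 20 lower probes. It was still at least 2-fold away from both of those stages for 1862 higher (94.9%) and 910 lower probes (91.3%). The rule had already put stage 35 at least 2-fold away from both. Of all tested probes, 3.36% fell and 5.01% rose by at least 2-fold between stages 35 and 40. Rare returns therefore do not by themselves show that a trend went on. All 5 stages ran in one direction for 1295 higher (66.0%) and 630 lower probes (63.2%). Every array among these except stage 40 was used to choose the probes. The share over all tested probes was not counted, so these shares are a description and do not show that a trend went on. At stage 40, 1955 of the higher probes (99.6%) and 802 of the lower probes (80.4%) were well above background, against 98.7% of all tested probes.

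The continuation differed between classes of probes, as a description over probes that share the stage 35 array. Of the 427 higher probes not detected at stages 20 and 25, 56.0% went at least 2-fold further at stage 40, against 21.0% of the 1090 detected on both arrays. Of the 778 lower probes detected on both arrays of stages 30 and 35, 28.7% went at least 2-fold further down. The 109 detected on neither were already at the background, where a further fall could not be measured, and are not set against them. Higher probes that had already gained at least 2-fold between stages 30 and 35 went on by at least 2-fold in 62.4% of 587 cases, those that gained less in 21.2% of 1193, and those that had turned back in 13.2% of 182. The same order held among the lower probes, with 44.4% of 347, 16.8% of 542 and 7.41% of 108. Higher probes at least 4-fold apart went on by 2-fold or more in 48.8% of cases, against 26.0% of those closer together, and for the lower probes the shares were 33.5% and 23.8%. These shares moved with the arrays: without stage 25, 17.6% of the higher and 11.6% of the lower probes then apart went on by at least 2-fold, without stage 30 the shares were 28.0% and 18.5%, and without stage 35, where stage 40 is set against stage 30, they were 53.6% and 47.9%.

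The 8 arrays up to stage 15 show where these probes came from, and the rule used none of them. The median level of the higher probes stayed between -7.18 and -6.71 (log2) from the egg to stage 10.5, was -5.94 at stage 15, and was -5.54, -4.06, -2.18, -1.33 and -0.60 at stages 20, 25, 30, 35 and 40. Between 36.6% and 46.9% of them were well above background on the arrays up to stage 15. Their medians on those arrays therefore lay near the background and are no measured level. The lower probes took another course. Their median lay between -5.93 and -5.27 up to stage 9, was -1.55 at stage 10.5, reached 0.10 at stage 15, and was -0.28, -1.40, -2.95, -3.71 and -4.21 at stages 20, 25, 30, 35 and 40. Between 48.8% and 56.5% of the lower probes were well above background up to stage 9, so their medians there also lay near the background. The median of all tested probes stayed between -1.92 and -1.16 throughout.

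**Figure D4:**
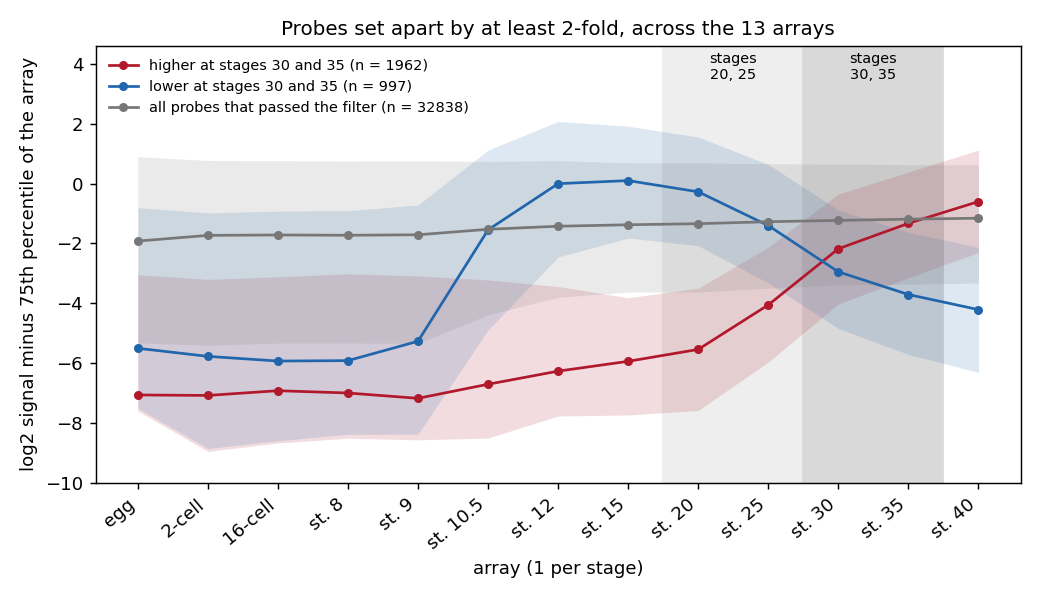
Median (line) and interquartile range (band) of the log2 signal minus the array's 75th percentile (vertical axis) on each of the 13 arrays in stage order (horizontal axis), for the 1962 probes higher at stages 30 and 35 (red), the 997 lower there (blue) and all 32838 tested probes (grey). The pale and dark shading mark stages 20 and 25 and stages 30 and 35. The red median lies near the background up to stage 15 and climbs to -0.60 at stage 40, and the blue median peaks at 0.10 at stage 15.

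Detection gave the same outline. On none of the 8 arrays up to stage 15 were 721 of the higher probes (36.7%) and 8 of the lower probes (0.802%) well above background, against 4.88% of all tested probes. The egg array detected 718 higher (36.6%) and 487 lower probes (48.8%), against 74.6% of all. All 8 early arrays detected 533 (27.2%) and 439 probes, against 70.3% of all. In the egg both sets were thus detected less often than the tested probes at large. At stage 15, 882 higher (45.0%) and 982 lower probes (98.5%) were detected, against 91.2%, so that the lower set then stood above all tested probes and the higher set below. Lower probes had to be well above background at the next stages, 20 and 25, and higher probes had to be low there. The rule therefore bears on the shares at stage 15 and on those detected on none of the 8 arrays. Among the higher probes the array of first detection was stage 20 for 162 (8.26%), stage 25 for 280 (14.3%) and stage 30 for 279 (14.2%), against 2.13%, 1.61% and 1.14% of all tested probes. The rule bears on these shares, since it asks for low values at stages 20 and 25. Among the lower probes it was stage 10.5, the early gastrula, for 202 (20.3%), stage 12 for 96 (9.63%) and stage 15 for 44 (4.41%), against 5.08%, 2.84% and 3.26%. The 2-cell stage, with 97 (9.73%), was near the 7.88% of all tested probes.

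The array with the highest signal of all 13 was stage 40 for 1357 of the higher probes (69.2%), stage 35 for 224 and stage 30 for 88, together 1669 (85.1%), against 24.9% of all tested probes. The rule favours these arrays, as it keeps stages 20 and 25 from being the highest. The egg was highest for 180 (9.17%) and one of the arrays between the egg and stage 9 for 276 (14.1%), fewer than the 26.3% and 39.8% of all tested probes. The median of those 180 probes was 0.57 in the egg and -0.81 at stage 9, and then -4.40, -3.74, -2.26, -1.60 and -1.22 at stages 20, 25, 30, 35 and 40. A high value in the egg and a lower one at stages 20 and 25 than at stages 30 and 35 are set by how these 180 were chosen. At stage 40, 85.6% of them were above stage 35, but 16.1% by at least 2-fold. The 721 probes not detected before stage 20 had medians of -7.78, -7.69, -5.65, -3.57, -2.54 and -1.50 at stages 15, 20, 25, 30, 35 and 40, and 41.7% of them went on by at least 2-fold at stage 40. Low values up to stage 15 and a rise after stage 25 are set by how these 721 were chosen.

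For the lower probes, the highest of the 13 arrays was stage 12 for 218, stage 15 for 243 and stage 20 for 226, together 687 (68.9%), against 27.5% of all tested probes. The rule bears on this share, as it asks for high values at stage 20 and keeps stages 30 and 35 from being the highest. For 205 (20.6%) it was one of the arrays between the egg and stage 9, and for 124 of these (12.4%) the egg, against 39.8% and 26.3% of all tested probes. The 487 lower probes detected in the egg had medians of -0.74 in the egg and 0.69 at stage 12, and then 0.03, -0.94, -2.73, -3.15 and -3.43 at stages 20, 25, 30, 35 and 40. The 510 others had -8.32, -3.94, -0.89 and -0.18 at stages 9, 10.5, 12 and 15, and then -0.55, -1.58, -3.30, -4.15 and -5.15 at stages 20, 25, 30, 35 and 40. Only 109 of these 510 (21.4%) were well above background at stage 9, so the median there is no measured level. Both groups passed through a high level between gastrula and neurula. They were split by detection in the egg, so their difference in the egg is set by that choice.

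The probes with the widest distances show these courses singly. They were chosen for their distance on these 4 arrays, and their values are a description. Xl#S14922576_1065 (accession CB561116), the widest of the higher probes, had -0.07 and 2.02 (log2) at stages 30 and 35, against -8.42 and -8.40 at stages 20 and 25. It was well above background at stages 30, 35 and 40 and on no earlier array. The later stages were at least 155-fold higher (limma adjusted p = 0.130), and stage 40 reached 4.30, which was 4.87-fold above stage 35.

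Xl#S14231009_365 (accession CB200584) had 0.43 and 2.65 at stages 30 and 35, against -8.31 and -7.57 at stages 20 and 25. It was also detected, at low levels, between the 2-cell stage and stage 9, and then not until stage 30. The later stages were at least 229-fold higher (limma adjusted p = 0.137), and stage 40, at 4.50, was 3.61-fold above stage 35. Both probes were thus first seen clearly at stage 30, or seen again there, and gained at each later array.

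Of the lower probes, Xl#S13590841_871 (accession AF149307) had -6.58 and -8.40 at stages 30 and 35, against 0.77 and -1.54 at stages 20 and 25. It was detected between stages 10.5 and 25 and on no other array, with its highest level, 2.28, at stage 12. The later stages were at least 63.4-fold lower (limma adjusted p = 0.149). The other probe of this accession was also in the lower set, with -5.35 and -5.27 at stages 30 and 35, against 0.28 and -2.08 at stages 20 and 25. The sides of that probe lay 3.18 (log2) apart, against 5.04 for the first. The bound of 63.4-fold therefore holds for the first probe alone.

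Xl#S19563834_714 (accession BP735133) had -4.14 and -5.58 at stages 30 and 35, against 3.07 and 0.62 at stages 20 and 25. It was detected on all arrays but the egg, with 3.22 at stage 12 and a highest level of 3.64 at stage 15. The later stages were 104-fold lower (difference -6.70, SE 0.94, limma adjusted p = 0.149), and stage 40 lay lower still, at -6.44. Its second probe was in the lower set too, with -4.32 and -6.01 at stages 30 and 35, against 2.66 and 0.25 at stages 20 and 25.

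**Figure D5:**
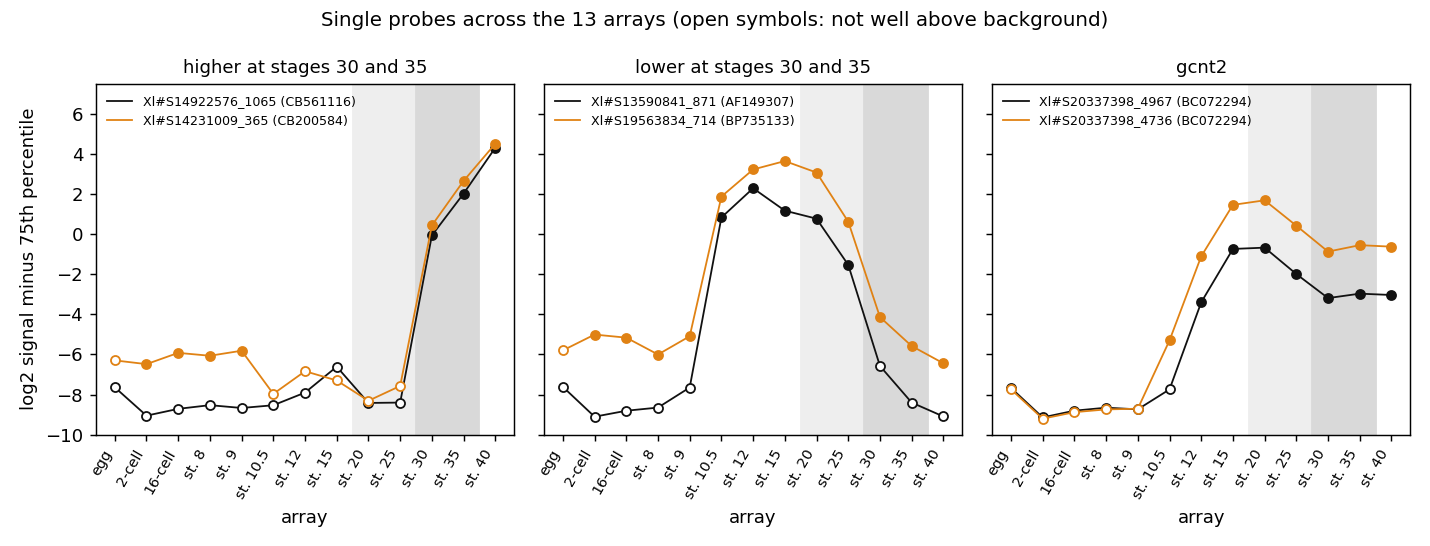
Log2 signal minus the array's 75th percentile (vertical axis) on the 13 arrays in stage order (horizontal axis) for the 2 probes with the widest distance in each direction and for both gcnt2 probes; filled symbols are well above background and open symbols are not, and shading marks stages 20 and 25 (pale) and stages 30 and 35 (dark). The higher probes leave the background at stage 30 and reach 4.30 and 4.50 at stage 40, the lower probes peak at stages 12 and 15, and the gcnt2 probes peak at stage 20 with -0.68 and 1.68.

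Of the matched glycogenes, gcnt2, an N-acetylglucosaminyltransferase that adds branches to poly-N-acetyllactosamine chains, fell just short of the limit with both of its probes. Xl#S20337398_4967 (accession BC072294) had -3.19 and -2.97 at stages 30 and 35, against -0.68 and -1.99 at stages 20 and 25, and its sides lay 1.97-fold apart (difference -1.75, SE 0.49, limma adjusted p = 0.159; 0.0504 for the trend with stage and 0.410 with 13 arrays). Xl#S20337398_4736 had -0.87 and -0.55, against 1.68 and 0.42, and its sides lay 1.96-fold apart (difference -1.76, SE 0.48, limma adjusted p = 0.157; 0.0571 for the trend and 0.389 with 13 arrays). Both probes were low at both later stages without overlap, and at stage 40 they stood at -3.04 and -0.63, near their values at stage 35.

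The glycogene mgat5b, an N-acetylglucosaminyltransferase related to the enzyme that branches N-glycans, stayed near the background. Xl#S13710824_415 (accession BJ067477) had -6.33 and -5.82 at stages 30 and 35, where it was detected, against -6.41 and -6.59 at stages 20 and 25, where it was not, a difference of at least 1.17-fold (limma adjusted p = 0.431). Its second probe was not well above background on any of the 4 arrays. Neither of these matched glycogenes was in the higher or the lower set, and 0 of the 4 probes passed the adjusted p. The study's other glycogenes were not read.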

How the data were processed

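The authors deposited the scanner output of 13 arrays, in which Agilent Feature Extraction 10.7.3.1 had corrected each spot's intensity for background on a linear scale; the flags for spots well above background are the software's. The deposited table of the series holds the same intensity in all 587860 values. Of 45220 spots, 1417 controls were left out. Following the study's methods, a floor of 1 was set, which no signal was under, and log2 was taken relative to each array's 75th percentile. The 9 non-uniform spots on the 4 arrays were kept, as none lay on both arrays of a side. Probes of 1 accession were kept apart. Sides were compared by a 2-fold distance and with limma 3.58.1 in R 4.3.3 (threshold 0.05), which was tested on simulated data; counts were made in Python 3.11.15 with pandas 2.3.3 and numpy 2.4.6. The number of arrays limits the precision.

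The comparison, lists and tests were chosen with earlier results of these data known. Named probes are the 2 with the widest distance in each direction, those at the 2-fold limit, and the glycogenes matched by accession. The alternatives included scaling to the median, to quantiles or to 7 of 10 spike-in probes. Normexp (offset 50) was run on the median spot intensity, since no mean intensity was at hand, and was followed by quantile normalization. Limits of 1.5-fold and 4-fold, other filters and 1 value per accession were also used. So were a stage trend, a spread shared over 13 arrays, and omission of single arrays.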

Additional observations from a re-analysis of the deposited data

How the results depend on the processing

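With 1 array per stage, differences within a side and between sides rest on single arrays. The p-values set a side difference or a trend against a spread between arrays of different stages. Counts of the gene lists, and their other scalings, were not run because 0 accessions matched. No paired analysis was possible because the labels number no replicates. Of 64 values for the 8 named probes under other settings, 50 kept their direction and their side of the threshold, 14 kept their direction and passed it, and 0 reversed. The adjusted p of the 4 widest probes, which were chosen on the same arrays, lay between 0.0063 and 0.302 over the settings other than the spike-in, lowest for each without stage 25, and was 8.2e-12 or less with the spike-in; for gcnt2 it lay between 0.0149 without stage 25 and 0.518 without stage 35. A fit that leaves out an array takes the lone array to vary like the other side.

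Beside 1962 higher and 997 lower probes at stages 30 and 35, the spike-in scaling gave 3689 and 447, normexp 996 and 637, 1 value per accession 1210 and 629 accessions, a 4-fold limit 584 and 158, a 1.5-fold limit 3975 and 2664, and detection on all 4 arrays 1090 and 778. Leaving out 1 array gave 2137 to 5238 higher and 1085 to 3729 lower probes, with the most without stage 25. Omission of an array or of the filter can only raise these counts. Under the median, quantiles and no filter the counts stayed within 1.5 times.

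The share of higher probes with one direction over the 4 arrays, 78.2%, was 75.6% with the median, 80.7% with quantiles, 82.1% with the spike-in, 84.6% with normexp, 70.7% at 4-fold, 83.6% with detection on all 4 arrays and 73.0% with no filter. For the lower probes, 84.7%, it was 79.0% with the spike-in and with no filter, 90.3% with normexp, 81.3% at 1.5-fold and 86.9% with detection on all 4 arrays.

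Stage 40 lay beyond stage 35 for 82.1% of the higher probes, against 79.7% with the median, 87.0% with the spike-in, 77.7% with normexp, 77.3% at 1.5-fold and 73.7% to 81.7% with 1 array left out. For the lower probes, 69.9%, it was 66.2% with the spike-in, 77.7% with normexp, 74.1% at 4-fold, 73.5% with detection on all 4 arrays and 67.4% to 79.5% with 1 array left out. At least 2-fold beyond lay 32.8% of the higher probes, against 26.8% with normexp, 48.8% at 4-fold, 21.5% at 1.5-fold, 21.0% with detection on all 4 arrays and 17.6% to 53.6% with 1 array left out. For the lower probes, 25.4%, it was 29.8% with the spike-in, 17.7% with normexp, 33.5% at 4-fold, 14.7% at 1.5-fold, 28.7% with detection on all 4 arrays and 11.6% to 47.9% with 1 array left out. The upper ends of 79.5%, 53.6% and 47.9% are those without stage 35. There stage 40 was set against stage 30, so they measure a longer step.

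The limma comparison, with 0 probes past the adjusted p in the 4-array fit, gave 6266 higher and 634 lower probes with the spike-in, 1 higher among probes detected on all 4 arrays, 1897 and 721 with 13 arrays sharing the spread, 4560 and 3734 for the stage trend, and 0 to 3933 higher and 0 to 2349 lower with 1 array left out. In the spike-in fit the spread was pooled with 54.6 prior degrees of freedom, against 2.91 in the 75th percentile fit. The cause of these shifts was not tested.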
